A study of Mus musculus with 18 samples.

Results

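Livers of mice fed canola oil were compared with livers of mice fed lard, in control animals and in animals lacking cytochrome P450 reductase (POR) in the liver. The arrays were chosen by the diet and genotype in their titles, which gave 12 of the 18 arrays of the series: 3 lard-fed control, 3 canola-fed control, 3 lard-fed knockout and 3 canola-fed knockout. The remaining 6 arrays came from mice fed a mixture of menhaden (fish) oil and ARASCO (fungal) oil. Each array (an Affymetrix whole-genome mouse expression array) was hybridised with liver RNA pooled in equal amounts from 3 mice, so each group stands for 9 mice.

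All mice were males of 12 weeks. Controls were Alb-Cre-/-/POR-lox+/+ and knockouts were Alb-Cre+/-/POR-lox+/+, so both carried the floxed Por alleles and only the knockouts carried Cre, driven by the albumin promoter of hepatocytes. The diets were given for 8 weeks from weaning at 4 weeks, and the mice were fasted for 4 h before they were killed. Every diet was AIN-93G with added cholesterol and sodium cholate, and differed in the fat: 6% lard or 6% canola oil by the series text, but 7% by the sample labels. Por itself is not analysed here. Cyp2b10, a drug-inducible P450, lay between 5.07 and 6.02 (log2 expression) on the 6 control arrays and between 8.14 and 11.08 on the 6 knockout arrays, so the genotypes did not overlap for this gene. The 8 hepatocyte markers tested had mean log2 levels between 13.98 and 14.16 on the 12 arrays, near the top of the scale.

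Lard is rich in saturated fatty acids. Canola oil is rich in oleic acid and also supplies the essential linoleic and alpha-linolenic acids. In hepatocytes unsaturated fatty acids are ligands of the nuclear receptor PPARalpha, which drives fatty acid oxidation and omega-hydroxylation, and they restrain the processing of SREBP1, the activator of fatty acid synthesis. SREBP2, a relative of SREBP1, drives cholesterol synthesis when sterols in the endoplasmic reticulum run low.

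No gene passed the test. The difference between diets was taken within each genotype and averaged with equal weight, in a limma fit with Benjamini-Hochberg adjustment over 12578 genes. The threshold was an adjusted p of 0.05, and 0 genes (0%) passed it in the average, in controls, in knockouts, or in the difference between the genotypes. The smallest adjusted p was 0.149 in the average, 0.346 in controls, 0.419 in knockouts and 1 for the difference. At an unadjusted p under 0.05, 852 genes were counted in the average, of which 243 were higher (1.93% of all genes) and 609 lower (4.84%) on canola oil. The same count gave 579 genes in controls (191 higher, 1.52%, and 388 lower, 3.08%) and 607 in knockouts (149 higher, 1.18%, and 458 lower, 3.64%). The difference between genotypes gave 241 genes (1.92%). For 34 genes (0.270%) every canola array exceeded every lard array in both genotypes, and for 84 genes (0.668%) every canola array was below.

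The precision limits what these counts say. The standard error of the averaged log2 difference had a median of 0.083, and its 95% interval a median half-width of 0.17. For 99.5% of genes this interval lay within a 2-fold change in either direction. A difference of 2-fold or more was measured for 11 genes, of which Cyp4a14, Mt2, Cyp2b9, Mt1, Vnn1 and Acot3 were higher and Sqle, S100a8, Fabp5, Egr1 and Moxd1 lower on canola oil. With single arrays left out in turn the count ran from 6 (without lard-fed knockout pool 1) to 15 (without lard-fed control pool 1), and was 7 without lard-fed control pool 2. With each of the 12 canola and lard arrays left out in turn, Cyp4a14, Mt2, Cyp2b9, Mt1 and Moxd1 stayed at 2-fold or more. Acot3, Vnn1, Sqle, S100a8, Fabp5 and Egr1 did not stay there in every fit. Leaving out a fish/fungal array could not change these differences, so those fits do not bear on this. Egr1 moved from -1.31 to -0.70 without lard-fed control pool 3, and Acot3 from 1.00 to 1.58 without lard-fed knockout pool 3. Some genes named here were dim: Mmp12, Sprr1a and Pdk4 lay below the array's median, the limit used for dim genes (5.23 to 5.29), on 7 of the 12 arrays, Mpo on 6, Pkhd1 on 4, Cyp2b9, Mogat1 and Moxd1 on 3, and Aqp4 and Cyp2b10 on 1. Their differences rest in part on values under that limit. All the differences below are given as values, on the log2 scale and as canola minus lard. The RNA came from whole liver, so fewer cells of a type and less RNA per cell cannot be told apart.

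**Figure D1:**
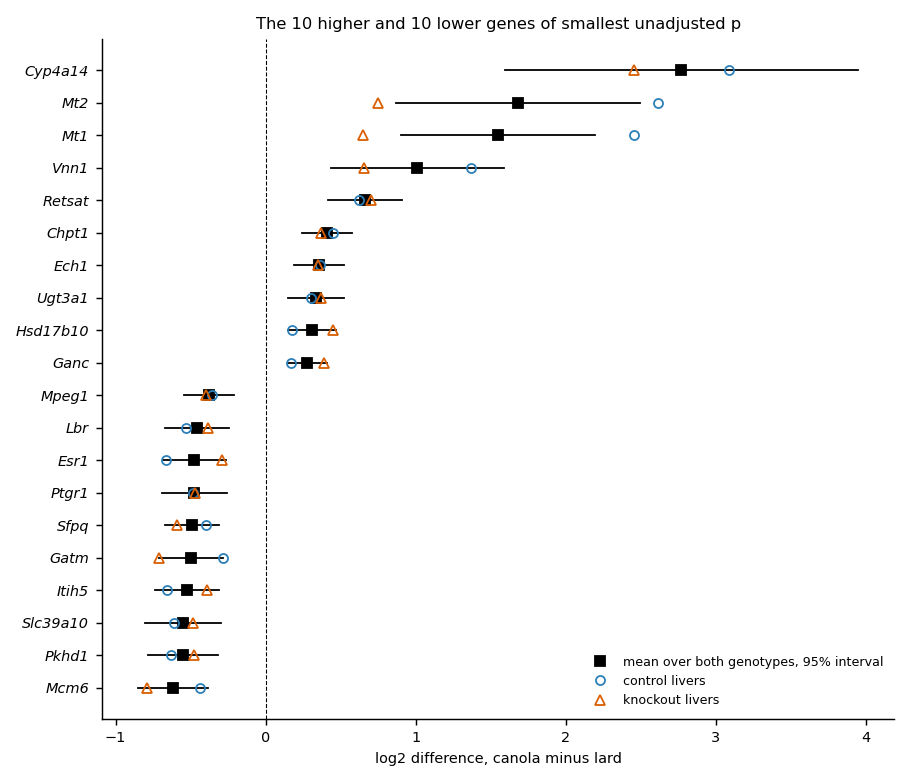
Log2 difference between canola-fed and lard-fed livers for the 10 genes higher and the 10 lower on canola oil with the smallest unadjusted p. Black squares are the mean over both genotypes with its 95% interval, circles the control livers and triangles the knockout livers; Cyp4a14 at 2.77 has the largest difference and the widest interval, and Mt1 and Mt2 show circles far to the right of their triangles.

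Genes of fatty acid oxidation mostly had positive differences. Of 31 tested members of a list of PPARalpha targets (36 listed, 5 without a named probe set), 29 had a positive difference and 25 were positive in each genotype. Over all 12578 genes, 5757 had a positive and 6821 a negative averaged difference. In each genotype, 3185 of all genes were positive and 3948 negative. These counts are the background for the averaged and both-genotype sign counts of the lists below. At an unadjusted p under 0.05, 12 members were higher and 0 lower, beside 1.93% and 4.84% of all genes, and 0 passed after adjustment. The median difference over the list was 0.21, with 0.31 in controls and 0.13 in knockouts, beside -0.01 over all genes. The difference between the genotypes had a p under 0.05 for 0 of these members.

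The largest value belonged to Cyp4a14, a microsomal P450 that hydroxylates fatty acids at the omega end and is a classical PPARalpha target. In controls Cyp4a14 lay at 9.53, 7.42 and 9.62 on lard and at 11.63, 12.76 and 11.46 on canola oil. In knockouts it lay at 7.95, 9.74 and 11.77 on lard and at 11.79, 12.70 and 12.33 on canola oil. The diets did not overlap in either genotype, although lard-fed knockout pool 3 almost reached the canola-fed pools. The averaged difference was 2.77 ± 0.56 (SE), or 6.83-fold, with a limma adjusted p of 0.18. Without lard-fed knockout pool 3 it was 3.26 with an adjusted p of 0.0317, and without pool 1 it was 2.305. Cyp4a14 passed the threshold in 1 of 29 alternative settings.

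Vnn1, the pantetheinase that splits pantetheine and another PPARalpha target, was higher by 1.01 ± 0.27 (SE; adjusted p = 0.344 by limma). On lard Vnn1 lay at 11.05, 9.30 and 10.17 in controls and at 10.52, 10.83 and 11.83 in knockouts. On canola oil the values were 11.35, 12.19 and 11.10 in controls and 11.83, 12.07 and 11.25 in knockouts. Only the control diets were free of overlap for Vnn1, and its second probe set gave 1.14.

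Enzymes that handle unsaturated acyl chains differed by less but varied less. Ech1 and Eci1 move double bonds during beta-oxidation, in peroxisomes and mitochondria for the first and in mitochondria for the second. Ech1 was higher by 0.35 ± 0.08 (SE; adjusted p = 0.224), with 12.13, 11.84 and 11.97 on lard against 12.31, 12.42 and 12.29 on canola oil in controls. In knockouts Ech1 lay at 11.82, 12.07 and 12.34 on lard and at 12.32, 12.51 and 12.45 on canola oil, where lard-fed pool 3 again sat inside the canola range. Without that pool the difference of Ech1 was 0.42, with an adjusted p of 0.0475, and without pool 1 it was 0.29. Ech1 passed the threshold in 1 of 29 alternative settings. Eci1 was higher by 0.38, Eci2 by 0.33, and Acadm, the medium-chain acyl-CoA dehydrogenase, by 0.32.

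The acyl-CoA thioesterases Acot1 and Acot3, which release free fatty acids from acyl-CoA, averaged 0.91 and 1.00 higher. For Acot3 the difference was 2.07 in controls and -0.06 in knockouts, though the difference between genotypes of -2.12 had an unadjusted p of 0.0631 by limma. The average of Acot3 was 1.58 without lard-fed knockout pool 3 and 0.70 without pool 2, so its knockout value depended on single pools. Cyp4a31 was higher by 0.87 and Pex11a, a factor of peroxisome division, by 0.54. Ppara itself, the receptor, differed by 0.14 with a 95% interval from -0.23 to 0.50. Cpt1a, which admits fatty acids to mitochondria, differed by 0.05, with an interval from -0.17 to 0.27. Fgf21, the hepatokine under PPARalpha, differed by 0.12 (-0.16 to 0.40), and Pdk4 by -0.13 (-0.94 to 0.69).

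**Figure D2:**
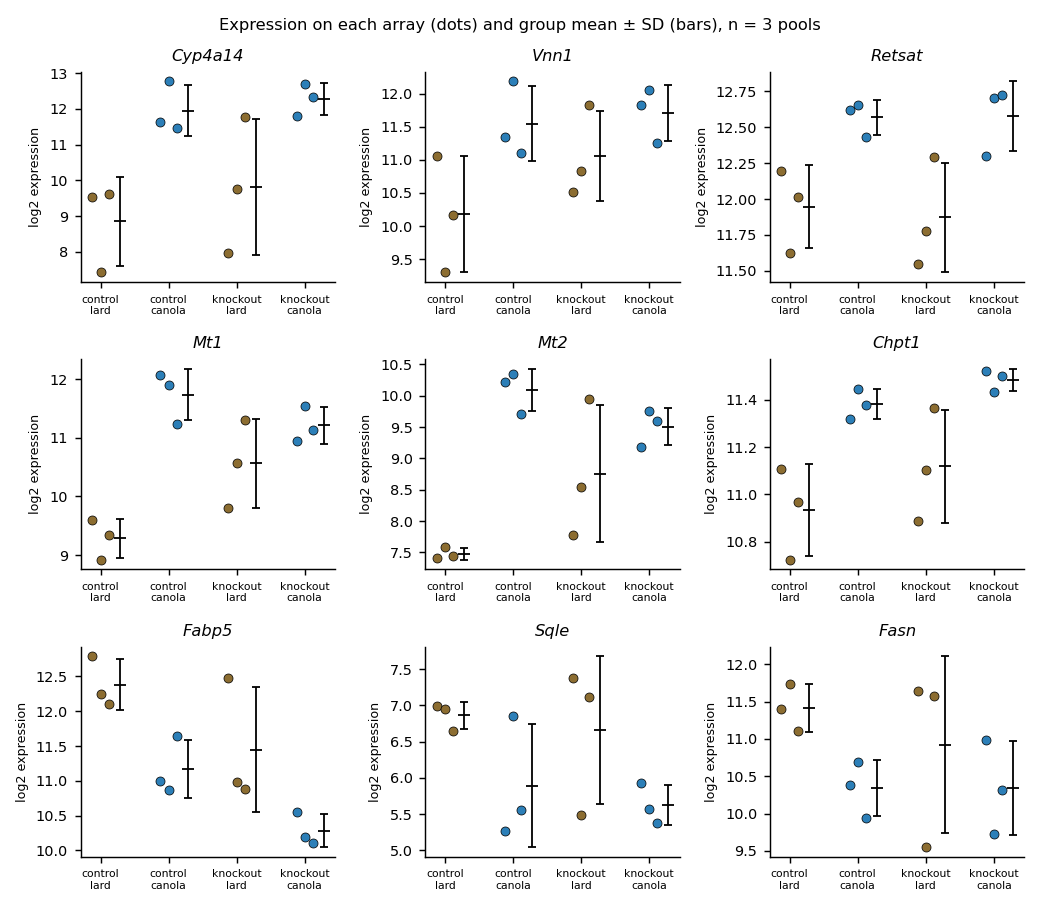
Log2 expression of 9 genes on each of the 12 arrays, as dots (brown for lard, blue for canola oil), with the mean ± SD of each group of 3 pools beside them. Cyp4a14, Retsat, Chpt1 and Fabp5 show no overlap between diets within either genotype, while Sqle and Fasn on lard spread widely among the knockout pools.

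Retsat, the retinol saturase, had the smallest unadjusted p among the genes that were higher, at 2.7e-05. In controls it lay at 12.20, 11.63 and 12.02 on lard and at 12.62, 12.66 and 12.43 on canola oil. In knockouts it lay at 11.54, 11.78 and 12.29 on lard and at 12.30, 12.71 and 12.73 on canola oil. The diets did not overlap in either genotype, and the averaged difference was 0.66 ± 0.12 (SE), or 1.58-fold (limma adjusted p = 0.149). It was 0.62 in controls and 0.71 in knockouts, and a second probe set gave 0.82. Without lard-fed knockout pool 3 the difference was 0.77 with an adjusted p of 0.011, and without pool 1 it was 0.58. Retsat passed the threshold in 1 of 29 alternative settings.

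Lipid uptake and droplet genes, a list around the PPARgamma axis, contained members on both sides. Of 19 tested, 16 had a positive difference, and the median was 0.28. At an unadjusted p under 0.05, 4 were higher and 2 lower, beside 1.93% and 4.84% of all genes. The 4 were Mogat1 (0.64), a monoacylglycerol acyltransferase, Fitm1 (0.55) and Fitm2 (0.36), which promote droplet formation, and the droplet coat protein Plin4 (0.38). G0s2, the inhibitor of adipose triglyceride lipase, averaged 0.53 with an interval from -0.01 to 1.07. Pparg differed by 0.28 and the fatty acid transporter Cd36 by 0.33, neither with a p under 0.05.

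The members lower on canola oil at an unadjusted p under 0.05 were Fabp5 and Lpl. Fabp5, a fatty acid binding protein of epidermis and macrophages, lay at 12.79, 12.25 and 12.11 in lard-fed controls and at 11.00, 10.86 and 11.64 in canola-fed controls. In knockouts the values were 12.48, 10.98 and 10.88 on lard and 10.56, 10.19 and 10.11 on canola oil. Every canola array was below every lard array of its genotype. The difference was -1.19 ± 0.29 (SE; limma adjusted p = 0.33), with -1.21 in controls, -1.16 in knockouts and -1.37 on a second probe set. Lpl, lipoprotein lipase, differed by -0.40 ± 0.11 (SE; adjusted p = 0.344), with 9.70, 9.95 and 9.71 on lard and 9.56, 9.42 and 9.30 on canola oil in controls. In knockouts Lpl lay at 10.94, 11.01 and 10.60 on lard and at 10.70, 10.51 and 9.99 on canola oil, so the diets overlapped there.

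**Figure D3:**
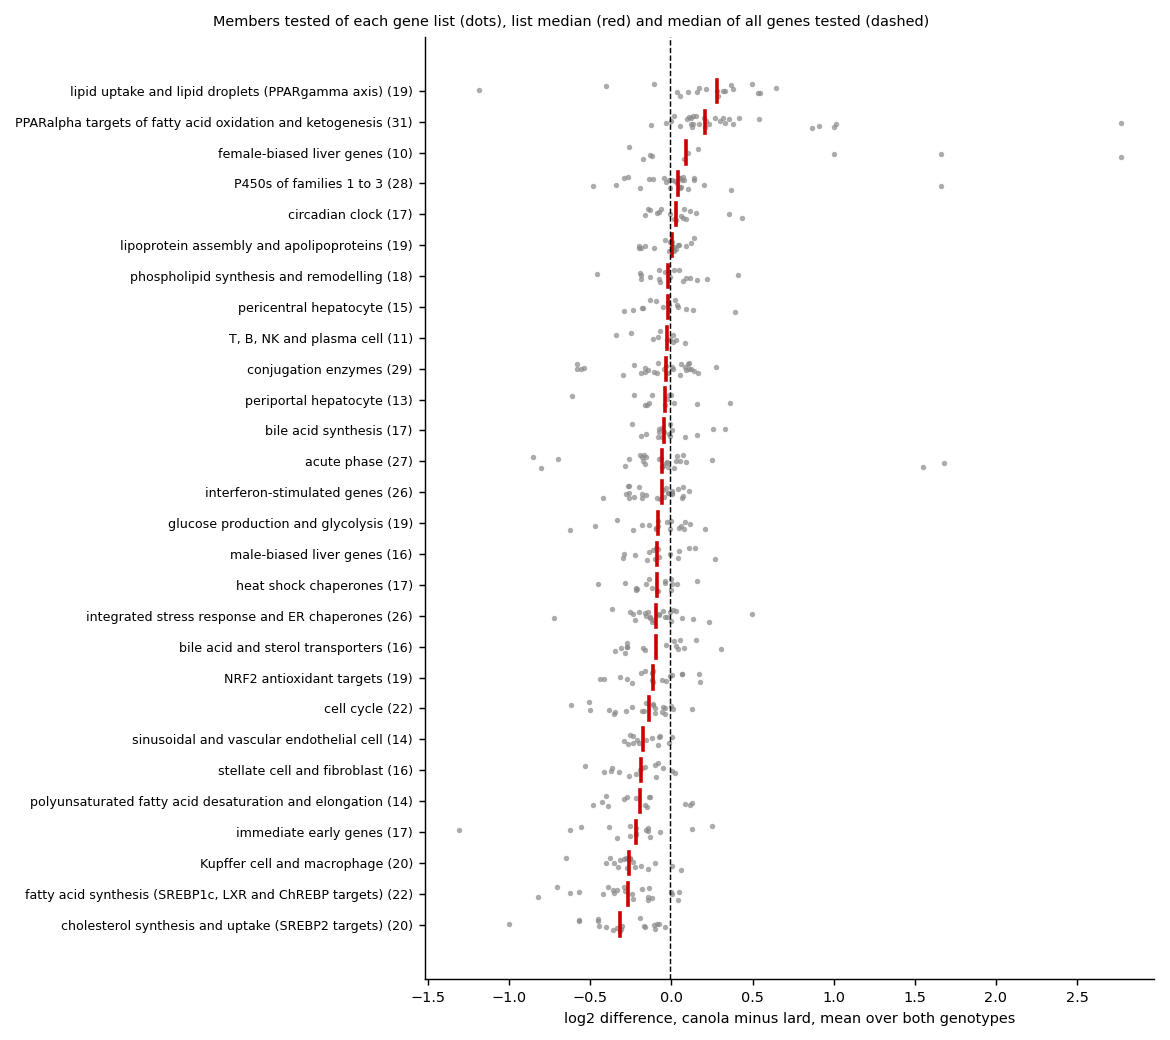
Averaged log2 difference (canola minus lard) of every tested member of the gene lists with at least 10 tested members, with the list median in red and the median of all genes as a dashed line. Lipid uptake and PPARalpha targets have the highest medians (0.28 and 0.21), cholesterol synthesis the lowest (-0.31); the number of tested members stands in brackets.

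Genes of cholesterol synthesis and uptake had negative differences in all 20 tested of 24 listed, and 18 were negative in each genotype. Of all 12578 genes 6821 were negative in the average and 3948 in each genotype. Under the alternative settings 0 to 2 of the 20 were positive. At an unadjusted p under 0.05, 8 were lower and 0 higher, beside 4.84% lower over all genes, and 0 passed after adjustment. The median was -0.31 in the average, -0.31 in controls and -0.33 in knockouts.

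Sqle, squalene monooxygenase and a control point of the pathway, had the largest value. In controls it lay at 6.99, 6.95 and 6.65 on lard and at 5.26, 6.85 and 5.56 on canola oil, where pool 2 stayed within the lard range. In knockouts it lay at 7.37, 5.49 and 7.11 on lard and at 5.93, 5.57 and 5.38 on canola oil, and here lard-fed pool 2 was as low as the canola-fed pools. The difference was -1.001 ± 0.28 (SE; limma adjusted p = 0.344), a 2-fold lower level. Without lard-fed knockout pool 2 it was -1.29 with an adjusted p of 0.042, and without pool 1 it was -0.82. Sqle passed the threshold in 1 of 28 alternative settings.

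The other members with an unadjusted p under 0.05 were Cyp51 (-0.57) and Fdps (-0.57), Nsdhl (-0.45), Pmvk (-0.45), Msmo1 (-0.41), Sc5d (-0.36) and Stard4 (-0.31). Cyp51, Msmo1, Nsdhl and Sc5d act after squalene, Fdps and Pmvk before it, and Stard4 carries cholesterol between membranes. Cyp51 depends on POR for its electrons, and its difference was -0.53 in controls and -0.62 in knockouts. Stard4 was the member without overlap: it lay at 10.18, 10.29 and 10.22 on lard and at 9.84, 9.88 and 9.89 on canola oil in controls. In knockouts Stard4 lay at 9.92, 9.49 and 9.68 on lard and at 9.49, 9.38 and 9.46 on canola oil, where the nearest pools of the diets are equal after rounding. Srebf2, the regulator, differed by -0.09 with a 95% interval from -0.24 to 0.06, and Hmgcs1 by -0.19 (-0.59 to 0.21).

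Fatty acid synthesis genes, targets of SREBP1c, LXR and ChREBP, mostly had negative differences. Of 22 tested members 19 had a negative difference. The median was -0.27 in the average, -0.39 in controls and -0.16 in knockouts. At an unadjusted p under 0.05, 6 were lower and 0 higher, beside 4.84% and 1.93% of all genes. The 6 were Fasn (-0.82), the fatty acid synthase, Acly (-0.71), which makes cytosolic acetyl-CoA, the carboxylase Acacb (-0.63), Pnpla5 (-0.57), Srebf1 (-0.36) and the acyltransferase Gpam (-0.34).

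Fasn lay at 11.40, 11.74 and 11.10 in lard-fed controls against 10.39, 10.70 and 9.95 in canola-fed controls, with no overlap. In knockouts it lay at 11.64, 9.55 and 11.57 on lard and at 10.99, 9.73 and 10.32 on canola oil, and lard-fed pool 2 was the lowest of these 6. The averaged difference of Fasn was -0.82 ± 0.33 (SE; limma adjusted p = 0.643). Acly lay at 11.97, 11.63 and 11.64 on lard and at 10.90, 11.12 and 10.84 on canola oil in controls. Its values in knockouts were 11.97, 10.33 and 11.11 on lard and 10.95, 10.12 and 10.48 on canola oil, and the averaged difference was -0.71 ± 0.22 (SE; adjusted p = 0.422). Scd1, the stearoyl-CoA desaturase that makes oleate, differed by -0.12 with a 95% interval from -0.39 to 0.15. Lpin1, a phosphatidate phosphatase, stood at -0.80 in controls and 0.51 in knockouts, though 0 members of this list passed the threshold for the difference between genotypes.

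Lard-fed knockout pool 2 was also low over both lists as a whole. The mean log2 level of the 20 cholesterol genes was 9.38, 8.78 and 9.25 in the lard-fed knockout pools, against 9.35, 9.27 and 9.27 in lard-fed controls. On canola oil it was 8.83, 9.16 and 8.99 in controls and 8.97, 8.56 and 8.84 in knockouts. For the 22 fatty acid synthesis genes the lard-fed knockout pools stood at 10.71, 9.82 and 10.42 and the canola-fed ones at 10.41, 9.89 and 10.13. The controls stood at 10.72, 10.60 and 10.45 on lard and at 10.27, 10.15 and 10.17 on canola oil, with no overlap. The opposite held for PPARalpha targets, where lard-fed knockout pool 3, at a mean level of 10.92, was above every other of the 12 arrays, against 10.13 and 10.25 for pools 1 and 2.

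**Figure D4:**
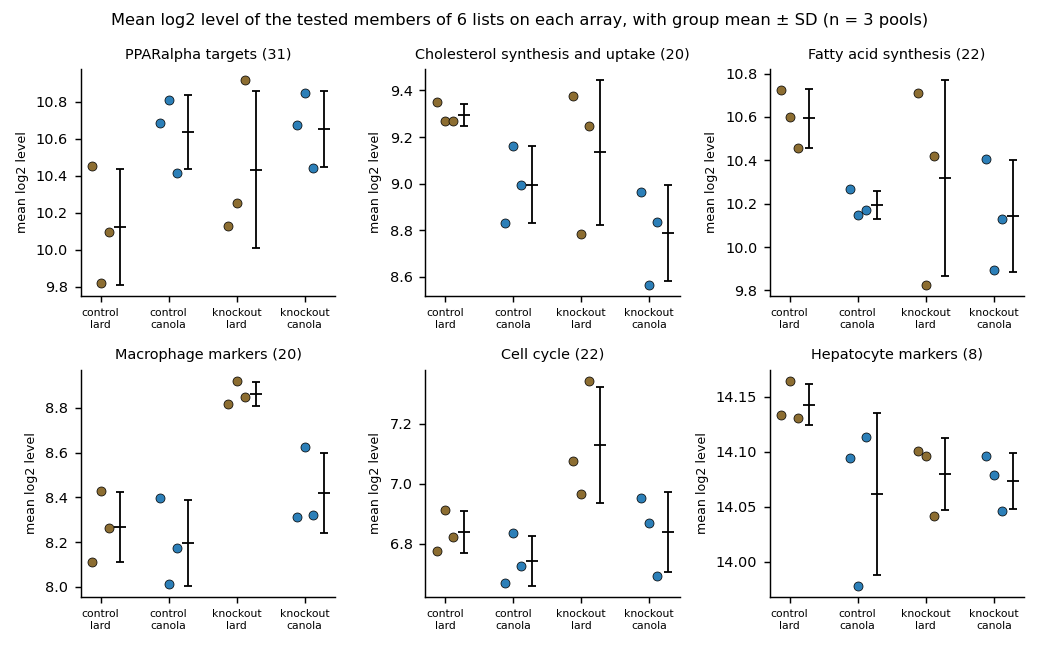
Mean log2 level of the tested members of 6 gene lists on each of the 12 arrays (dots, brown for lard and blue for canola oil), with the mean ± SD of each group of 3 pools; the vertical scales differ. Lard-fed knockout pool 2 lies low for both synthesis lists, pool 3 lies high for PPARalpha targets at 10.92, and macrophage markers are separated by diet in knockouts but not in controls.

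Polyunsaturated fatty acid genes had a negative difference in 11 of 14 tested members, with a median of -0.19. At an unadjusted p under 0.05, 6 were lower and 0 higher, beside 4.84% and 1.93% of all genes. The 6 were Acsl3 (-0.48) and Acsl4 (-0.43), which activate long-chain fatty acids, the delta-5 desaturase Fads1 (-0.40), Scd2 (-0.39), the elongase Elovl2 (-0.27) and the reductase Tecr (-0.22). Elovl2, which extends long polyunsaturated chains, lay at 12.49, 12.65 and 12.54 in lard-fed controls and at 12.31, 12.07 and 12.32 in canola-fed controls. In knockouts Elovl2 lay at 12.16, 12.13 and 12.50 on lard and at 12.10, 11.92 and 12.12 on canola oil, without overlap in either genotype (adjusted p = 0.344 by limma). Fads2, the delta-6 desaturase, differed by -0.29, with a 95% interval from -0.69 to 0.11.

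Phospholipid genes had a median of -0.02 over 18 tested members. Chpt1, the cholinephosphotransferase that completes phosphatidylcholine, had the highest value of its list. It lay at 11.11, 10.72 and 10.97 on lard and at 11.32, 11.45 and 11.38 on canola oil in controls. In knockouts it lay at 10.89, 11.10 and 11.36 on lard and at 11.52, 11.43 and 11.50 on canola oil, so no arrays overlapped. The difference was 0.41 ± 0.08 (SE; limma adjusted p = 0.18), and the other 3 probe sets gave 0.43 to 0.48. Without lard-fed knockout pool 3 Chpt1 differed by 0.47 with an adjusted p of 0.0373, and without pool 1 by 0.35. It passed the threshold in 1 of 29 alternative settings. Chka, the choline kinase at the start of the same route, averaged -0.46.

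Of 16 tested bile acid and sterol transporters, 7 had a positive and 9 a negative difference, and 4 were positive in both genotypes. Their median of -0.10 became -0.0035 without canola-fed knockout pool 3. The negative members included exporters of the canalicular membrane: -0.35 for Abcb11, the bile salt export pump, -0.31 and -0.27 for Abcg5 and Abcg8, the sterol exporter, and -0.29 for the lipid flippase Atp8b1. With the basolateral Slc51b (-0.28) these were the 5 of 16 tested transporters with an unadjusted p under 0.05, and 0 were higher. Over all genes 4.84% were lower and 1.93% higher at that p. Abcg5 stood at -0.58 in controls and -0.04 in knockouts, Abcg8 at -0.50 and -0.05, and Atp8b1 at -0.43 and -0.14. Slc51b stood at -0.07 in controls and -0.48 in knockouts. For the difference between genotypes 0 of these transporters passed the threshold. Abcb11 lay at 11.57, 12.22 and 11.82 on lard and at 11.61, 11.23 and 11.67 on canola oil in controls. In knockouts Abcb11 lay at 12.31, 12.18 and 12.03 on lard and at 11.91, 11.71 and 11.93 on canola oil, with no overlap (average -0.35 ± 0.10 SE, limma adjusted p = 0.393). Bile acid synthesis had a median of -0.05 over 17 genes. Cyp7a1, its rate-limiting enzyme, differed by 0.01 with an interval from -0.84 to 0.85. Apolipoprotein and lipoprotein assembly genes had a median of 0.00 over 19 genes. At an unadjusted p under 0.05, 1 was higher and 2 lower, beside 1.93% and 4.84% of all genes.

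Among 28 tested P450s of families 1 to 3 the median was 0.04, with 3 higher and 2 lower at an unadjusted p under 0.05, beside 1.93% and 4.84% of all genes. Cyp2b9, a P450 that is female-biased in mouse liver, averaged 1.66 ± 0.62 (SE; limma adjusted p = 0.572). It lay at 5.34, 4.53 and 4.63 on lard and at 6.99, 7.62 and 5.01 on canola oil in controls, where lard-fed pools 2 and 3 and canola-fed pool 3 were below the array medians, so the size of its difference is uncertain. In knockouts Cyp2b9 lay at 5.70, 5.57 and 9.00 on lard and at 8.21, 9.08 and 7.82 on canola oil, where lard-fed pool 3 fell among the canola pools. Of 10 tested female-biased genes 2 were higher at an unadjusted p under 0.05, Cyp2b9 and Cyp4a14, and 0 lower. Their list median was 0.09, and Cyp4a14 is also among the PPARalpha targets above. Of 16 male-biased genes 0 were higher and 0 lower at that p. Over all genes the shares were 1.93% higher and 4.84% lower. Among 29 conjugation enzymes 0 were higher and 2 lower in the average, again beside 1.93% and 4.84% of all genes: the glutathione transferases Gstm2 (-0.56) and Gstm3 (-0.54). In knockouts 2 were higher and 6 lower, beside 1.18% and 3.64% of all genes, and 21 of 29 differences were negative. In controls 0 were higher, 0 lower and 16 of 29 negative. Gstm2 differed by -0.15 in controls and -0.96 in knockouts, where its levels were 9.54 to 11.17 against 9.11 to 9.50 in controls.

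Metallothioneins, small proteins that bind zinc and copper, were among the largest values. Mt1 lay at 9.59, 8.92 and 9.34 in lard-fed controls and at 12.07, 11.90 and 11.24 in canola-fed controls. In knockouts Mt1 lay at 9.80, 10.58 and 11.31 on lard and at 10.94, 11.55 and 11.14 on canola oil. The controls were widely separated and the knockouts overlapped. The difference of Mt1 was 2.45 ± 0.43 (SE) in controls and 0.65 in knockouts, averaging 1.55 ± 0.31 (SE; limma adjusted p = 0.18).

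Mt2 showed the same values in outline, at 7.41, 7.58 and 7.44 on lard and 10.22, 10.35 and 9.71 on canola oil in controls. In knockouts Mt2 lay at 7.78, 8.55 and 9.94 on lard and at 9.18, 9.75 and 9.59 on canola oil. Its difference was 2.61 in controls, 0.75 in knockouts and 1.68 ± 0.39 (SE) in the average (adjusted p = 0.239). In the limma fit the difference between genotypes was -1.80 for Mt1 (unadjusted p = 0.00905) and -1.86 for Mt2 (unadjusted p = 0.0271). The adjusted p was 1 for both.

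The calls and probe sets of Mt1 and Mt2 varied. A fit of only the 12 arrays gave Mt1 in controls an adjusted p of 0.0387, and leaving out fish/fungal-fed control pool 1 gave 0.0257 for Mt1 and 0.044 for Mt2. A second, dimmer probe set of Mt1 gave 0.16 in the average and 0.38 in controls, so the probe sets of this gene disagreed. Slc39a10, a zinc importer, differed by -0.55 ± 0.12 (SE; limma adjusted p = 0.224). It lay at 5.84, 6.50 and 6.35 on lard and at 5.56, 5.83 and 5.47 on canola oil in controls. In knockouts Slc39a10 lay at 6.64, 6.10 and 6.22 on lard and at 5.98, 5.80 and 5.72 on canola oil, without overlap in either genotype. A further 5 genes, metal ion transporters and a metal-responsive factor, were looked up after these values were seen. Of these, 0 had an unadjusted p under 0.05 by limma in either genotype. The zinc importer Slc39a4 differed by -0.36 in controls (95% interval -0.74 to 0.03) and 0.12 in knockouts, and Slc39a14 by -0.19 and 0.14. Slc30a10 differed by -0.26 in controls and -0.02 in knockouts, the zinc exporter Slc30a1 by 0.08 and 0.06, and the metal-responsive factor Mtf1 by 0.12 and 0.13.

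Cell cycle genes had a negative difference in 20 of 22 tested members, with a median of -0.14, which was -0.04 in controls and -0.24 in knockouts. At an unadjusted p under 0.05, 5 were lower and 0 higher, beside 4.84% and 1.93% of all genes. Mcm6, a subunit of the replicative helicase, lay at 7.33, 7.66 and 7.34 on lard and at 6.82, 7.08 and 7.10 on canola oil in controls. In knockouts Mcm6 lay at 8.19, 7.71 and 8.36 on lard and at 7.38, 7.30 and 7.20 on canola oil, again without overlap. The difference was -0.62 ± 0.11 (SE; limma adjusted p = 0.149), and -0.71 with an adjusted p of 0.0183 without lard-fed knockout pool 2. It was -0.55 without pool 3, and Mcm6 passed the threshold in 1 of 29 alternative settings. Mcm5, of the same complex, averaged -0.51 and cyclin D1 (Ccnd1) -0.50, both without overlap between diets. Cdk1 and Ccna2, which act at mitosis and in S phase, averaged -0.35 and -0.38, with -0.66 and -0.64 in knockouts and -0.03 and -0.12 in controls.

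Macrophage markers had a negative difference in 18 of 20 tested, with 9 lower and 0 higher at an unadjusted p under 0.05, beside 4.84% and 1.93% of all genes. Their median was -0.26 in the average, -0.09 in controls and -0.38 in knockouts. The summed linear level of the list ran from 12249 to 16299 in lard-fed controls and from 10527 to 14665 in canola-fed controls. In knockouts it ran from 19323 to 20664 on lard and from 13419 to 17156 on canola oil, with no overlap. Clec4f of Kupffer cells had group means between 9.83 and 10.34, and Adgre1 between 8.23 and 8.84, above the array medians of 5.23 to 5.29. The list member Mmp12 was below these medians on every control array. The part of these markers in other differences was not tested.

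Mpeg1, a pore-forming protein of macrophages, had the smallest unadjusted p of the list at 0.000175. It lay at 10.63, 10.79 and 10.54 on lard and at 10.53, 9.96 and 10.40 on canola oil in controls. In knockouts Mpeg1 lay at 11.03, 11.12 and 11.00 on lard and at 10.70, 10.64 and 10.62 on canola oil. All canola arrays were below the lard arrays of their genotype, and the difference was -0.38 ± 0.08 (SE; limma adjusted p = 0.2). The lysosomal protease Ctss averaged -0.33 and lysozyme (Lyz2) -0.32, with -0.49 and -0.61 in knockouts and -0.16 and -0.02 in controls.

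Mmp12, the macrophage elastase, was named by the rule for differences between genotypes, but in controls it lay at 3.83, 3.82 and 3.74 on lard and at 4.13, 4.41 and 3.89 on canola oil, all below the array medians. In knockouts Mmp12 lay at 6.55, 7.10 and 6.58 on lard and at 5.26, 5.77 and 4.27 on canola oil, without overlap and with canola-fed pool 3 below the medians. Sprr1a, a cornified envelope protein, was also below the medians on all 6 control arrays. In knockouts Sprr1a lay at 5.83, 6.18 and 7.53 on lard and at 5.27, 5.74 and 4.82 on canola oil, again without overlap and with pool 3 of the canola group below. For both genes the size of the difference is therefore not given. Gpr137b, a lysosomal membrane protein, differed by -0.02 in controls and -0.60 in knockouts (limma adjusted p of the difference 1). In lard-fed knockouts Gpr137b lay at 6.85, 6.60 and 6.66, above the 6.05, 6.22 and 6.04 of canola-fed knockouts.

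Markers of the other non-parenchymal cells varied by list. Stellate cell and fibroblast markers had a median of -0.19. At an unadjusted p under 0.05, 5 of 16 were lower and 0 higher, beside 4.84% and 1.93% of all genes. The 5 included the collagens Col3a1 (-0.53), Col4a1 (-0.41) and Col1a2 (-0.37). The summed level of this list ran from 7478 to 7593 in lard-fed controls and from 6434 to 7224 in canola-fed controls. In knockouts it ran from 7754 to 9960 and from 7520 to 8582. Endothelial markers had a median of -0.18, with 3 of 14 lower and 0 higher, beside the same shares of all genes. Their summed level ran from 4806 to 5224 on lard and from 4266 to 5571 on canola oil in controls, and from 5451 to 5767 and 4203 to 5350 in knockouts. The 8 hepatocyte markers had a median of -0.03, 15 pericentral markers -0.02 and 13 periportal markers -0.04. MHC class II genes had a median of -0.08, with 0 of 6 below that p, and T, B, NK and plasma cell markers -0.03 over 11.

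Among neutrophil markers S100a8 and S100a9, the calprotectin subunits, averaged -1.04 and -0.88, but Mpo and Elane, made by neutrophil precursors, 0.08 and 0.05. S100a8 lay at 6.09, 7.60 and 8.60 in lard-fed controls and at 5.76, 6.53 and 6.17 in canola-fed controls, so lard-fed pool 1 overlapped. In knockouts it lay at 7.42, 7.88 and 6.49 on lard and at 6.73, 6.62 and 6.03 on canola oil (average adjusted p = 0.468 by limma). The serum amyloids Saa1 (-0.81) and Saa2 (-0.85), acute phase proteins of hepatocytes, had the same lard-fed control pool 1 low. Saa1 lay there at 10.73, against 12.18 and 12.24 in the other lard-fed controls and 10.92, 10.78 and 10.86 on canola oil. Of 27 acute phase genes tested 4 were lower and 2 higher at an unadjusted p under 0.05, beside 4.84% and 1.93% of all genes. The 2 were Mt1 and Mt2.

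Interferon-stimulated genes had a median of -0.06 over 26 tested. At an unadjusted p under 0.05, 7 were lower and 0 higher, beside 4.84% and 1.93% of all genes. Oasl2, an antiviral protein of the oligoadenylate synthetase family, lay at 6.28, 6.46 and 6.36 on lard and at 6.26, 5.84 and 6.00 on canola oil in controls. In knockouts Oasl2 lay at 7.07, 6.82 and 7.03 on lard and at 6.32, 6.68 and 6.41 on canola oil, with no overlap (average -0.42, adjusted p = 0.276 by limma). Immediate early genes had a median of -0.22 over 17, with 2 lower and 0 higher, beside the same shares of all genes. Egr1, a growth factor induced transcription factor, averaged -1.31 with an interval from -2.67 to 0.04, and -0.70 without lard-fed control pool 3. It lay at 6.50, 7.55 and 10.72 in lard-fed controls, a wide spread, and at 6.69, 6.67 and 6.66 in canola-fed controls. In knockouts Egr1 lay at 8.56, 8.79 and 7.87 on lard and at 7.40, 7.48 and 7.21 on canola oil, with no overlap.

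The remaining pathway lists had medians between -0.11 and 0.03, beside -0.01 over all genes. The differences were negative for 14 of 19 NRF2 targets (median -0.11; 18 of 19 in knockouts and 10 in controls), 20 of 26 stress response genes (-0.10), 14 of 17 heat shock chaperones (-0.09), 13 of 19 glucose genes (-0.08) and 7 of 17 clock genes (0.03), beside 6821 of 12578 genes tested. At an unadjusted p under 0.05 these lists held 0 to 2 members in either direction in the average, beside 1.93% higher and 4.84% lower of all genes. Markers of bile duct, adipocytes, pancreas, red cells and muscle held 0.

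The other genes of smallest p were spread over many functions. Higher on canola oil were Hsd17b10 (0.31), a mitochondrial dehydrogenase, Ugt3a1 (0.33), a glycosyltransferase, and Ganc (0.28), a glucosidase whose second probe set gave -0.01. Lower were Sfpq (-0.49), Itih5 (-0.52), Pkhd1 (-0.55), Gatm (-0.50), Esr1 (-0.48), Ptgr1 (-0.48) and Lbr (-0.46). Sfpq, an RNA-binding splicing factor, had the smallest unadjusted p in the average, 2.09e-05, with 7.76, 8.04 and 7.91 on lard and 7.54, 7.42 and 7.56 on canola oil in controls. In knockouts Sfpq lay at 8.08, 8.18 and 8.22 on lard and at 7.55, 7.39 and 7.77 on canola oil, and with array weights its adjusted p was 0.0475. Sfpq passed the threshold in 1 of 29 alternative settings. Its other 5 probe sets gave -0.25 to 0.00, so the value rests on 1 probe set. Esr1, the oestrogen receptor, lay at 8.91, 9.16 and 8.82 on lard and at 8.32, 8.27 and 8.32 on canola oil in controls. Its difference was -0.66 there and -0.29 in knockouts. Another Esr1 probe set, with a mean level of 5.61, gave -0.41 in controls and -0.55 in knockouts, so the order of the genotypes was reversed there. A dim Esr1 probe set, with a mean level of 3.86, gave 0.08 in controls and 0.07 in knockouts. Cdh1, the epithelial cadherin and a periportal marker, averaged -0.62 ± 0.14 (SE; limma adjusted p = 0.239), with -0.62 in controls and -0.61 in knockouts.

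**Figure D5:**
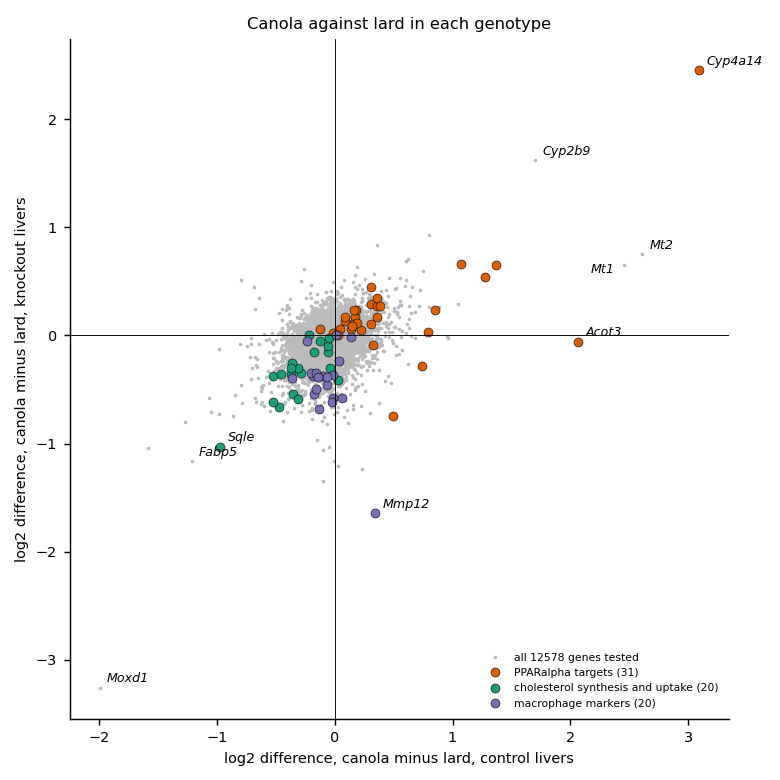
Log2 difference (canola minus lard) in control livers against that in knockout livers for 12578 genes, with 3 gene lists coloured. Cyp4a14 and Cyp2b9 lie high on both axes, Mt1, Mt2 and Acot3 mainly to the right, and Mmp12 low on the knockout axis, with all its control values below the array medians.

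The genotypes resembled each other only loosely over all genes. Control and knockout differences share no arrays, and across the 12578 genes their Pearson r was 0.349 and Spearman rho 0.232, a description in which genes are not independent replicates. The sign was the same for 7133 genes (56.7%).

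A comparison of the fish/fungal group with lard would share these lard arrays, so its levels alone are given, for genes with large values here. Cyp4a14 averaged 11.49 ± 1.36 (SD, n = 3) in controls and 11.57 ± 0.53 in knockouts on fish/fungal oil, below the canola means of 11.95 and 12.27 but above the lard means of 8.86 and 9.82. Retsat averaged 12.64 and 12.57 on fish/fungal oil, close to 12.57 and 12.58 on canola oil. For the synthesis genes canola oil lay between the other diets: Fasn averaged 11.41, 10.34 and 8.50 on lard, canola and fish/fungal oil in controls, and 10.92, 10.34 and 8.44 in knockouts. Sqle averaged 6.86, 5.89 and 4.92 in controls and 6.66, 5.63 and 5.18 in knockouts in the same order. Mt1 averaged 12.78 in knockouts on fish/fungal oil, above the 11.21 on canola oil, whereas in controls the averages were 11.63 and 11.74.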

How the data were processed

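The deposited log2 values of 45101 probe sets on 18 arrays came from RMA, per the submitters' processing notes, with the version not given in the sources used here. Of these, 34945 had 1 gene symbol in the platform table, 932 several and 9160 were unlisted; 64 were array controls. The brightest probe set on average stood for each of 18193 genes, and 12578 genes above the array's median on at least 3 arrays were tested. Array medians ran from 5.23 to 5.29, and arrays of a group correlated at 0.993 to 0.997.

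In limma 3.58.1 (R 4.3.3), 6 group means were fitted over all 18 arrays with an intensity trend, so all groups share the estimate of spread. Depth does not apply; the number of arrays limits the precision. The code was tested on simulated data. List counts carry no test. Named genes were those of smallest p: 10 higher and 10 lower in the average, 2 each way in a genotype, 3 for the difference, and 2 per list. Other list members are examples chosen after their values were seen, as were Cyp2b10, Acot3, Moxd1 and the genes of the 2-fold list. Members and lists were chosen with earlier results of these data known. A promoter search was reserved for lists with 3 called genes, and none had any.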

Additional observations from a re-analysis of the deposited data

How the results depend on the processing

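Over 29 alternatives (normalization, centring, filter, probe set choice, trend, array weights, arrays in the fit, replicate block, additive model and 18 single arrays left out) the averaged comparison gave 0 called genes, except 1 with array weights (Sfpq) and 0 to 4 with an array left out: 1 without lard-fed control pool 2 (S100a6), 4 lower without lard-fed knockout pool 2 (D130043K22Rik, Mcm6, Smoc2 and Sqle), and 4 higher without lard-fed knockout pool 3 (Chpt1, Cyp4a14, Ech1 and Retsat). Controls gave 1 (Mt1) with only canola and lard arrays and 0 to 2 with an array left out; knockouts and the difference gave 0 throughout. Genes at an unadjusted p under 0.05 numbered 483 against 852 (averaged), 377 against 579 (controls), 245 against 607 (knockouts) and 94 against 241 (difference) with the filter at the 75th percentile. Array weights gave 978 in knockouts and 427 for the difference, and no filter 492 for the difference. The stricter filter tests fewer genes than 12578 and no filter tests 18193, so counts under these filters have unlike totals. Leaving out an array took controls from 304 (without lard-fed pool 2) to 889 (without canola-fed pool 1), and the difference to 427 without canola-fed control pool 1. With the replicate block 0 genes were called. Pools of the same replicate number in different groups had a median correlation of 0.116 (range -0.313 to 0.458), taken after removing group means. For different numbers the median was -0.031. Of 18 same-number pairs 9 correlated over 0.1, and 7 of 12 arrays correlated best with their own number. Whether the numbers mark a shared handling of pools was not tested.

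Of 2757 gene values under alternatives 10 turned sign, all in markers near 0: Epcam was -0.0456 with the mean of probe sets and -0.0004 to 0.0716 with an array left out, Hbb-b2 0.0182 and -0.147 to 0.0293, Upk3b 0.0074 with array weights and -0.0741 to 0.0108, Cela3b -0.1145 to 0.0011 and Alas2 -0.0314 to 0.0739. Many of the 2757 could not turn sign: the trend, the filters, the replicate block and fish/fungal arrays left out leave a gene's difference unchanged. The 10 of 2757 therefore understates how often a sign turned where it could. List medians ranged from -0.387 to -0.226 for cholesterol synthesis, -0.413 to -0.156 for fatty acid synthesis, 0.139 to 0.271 for PPARalpha targets, -0.341 to -0.199 for macrophages and -0.959 to 0.0541 for neutrophils; the median of all genes from -0.014 to 0.0194.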

Other observations

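Moxd1, a monooxygenase-like protein related to dopamine beta-hydroxylase and picked after its values were seen, varied widely between pools. It lay at 8.61, 9.33 and 9.59 in lard-fed controls and at 4.06, 6.89 and 10.60 in canola-fed controls, so canola-fed pool 3 was above all lard pools and pool 1 below the array medians. In knockouts Moxd1 lay at 8.22, 8.56 and 7.43 on lard and at 4.38, 5.70 and 4.35 on canola oil. Canola-fed knockout pools 1 and 3 were also below the array medians, so the size of the averaged difference, -2.63 ± 0.94 (SE; limma adjusted p = 0.519), rests on dim values in both genotypes. It ran from -3.48 to -1.85 with an array left out.

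Tspyl4, a nucleosome assembly family member also picked after its values were seen, differed by -0.98 in controls and -0.12 in knockouts. It lay at 7.63, 7.89 and 7.59 in lard-fed controls and at 6.77, 6.24 and 7.15 in canola-fed controls. The difference between genotypes of 0.86 had an unadjusted p of 0.0147 and an adjusted p of 1. Tff3, a trefoil factor, differed by -0.63 in both genotypes, and Aqp4, a water channel, by 0.80 in controls and 0.93 in knockouts; the averaged adjusted p was 0.483 and 0.565 by limma.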
